A study of Drosophila melanogaster with 9 samples.

Results

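The 866 genomic copies of 30 families of LTR retrotransposon were examined in 80S monosomes, polysomes and total RNA of fly heads. A copy was taken as a member where the Ensembl annotation of the assembly gives it as a transposable element and its symbol before the braces is 1 of 31 listed family names. These copies are among 5576 annotated element copies and 23932 features of the count table. The name Max-element matched no symbol exactly, so that the 22 copies with the symbol Max were not counted. All libraries came from adult heads of wild type Dahomey Drosophila melanogaster with no genetic change and no treatment, from many pooled whole flies of 0 to 5 days that were frozen and shaken to break off the heads. Heads were lysed with cycloheximide, and fractions of a sucrose gradient that held monosomes (80S) or polysomes (POLY) were combined, while total cytoplasmic RNA (TOT) came from lysate that was not loaded on the gradient. Each of the 3 groups had 3 replicates, with 13555484 (POLY replicate 1) to 44096558 (80S replicate 3) counts. Nothing in the labels says that replicates came from separate fly cultures, so that p-values measure the spread between these preparations.

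LTR retrotransposons are mobile elements flanked by long terminal repeats. The element is transcribed from one repeat to the other, and the RNA serves both as mRNA for the Gag capsid protein and the Pol polyprotein (protease, reverse transcriptase, integrase) and as the template that is copied into DNA inside virus-like particles. Fly families fall into the Ty1/copia, BEL/Pao and Ty3/gypsy superfamilies, and some of the latter, such as gypsy, 297, 17.6, Tirant and Idefix, also carry an env gene. In the gonad they are held down by piRNAs, small RNAs bound by Piwi proteins, and in somatic cells by siRNAs made by Dcr-2 and bound by AGO2. A library counts the RNA that sedimented in its fraction, and how many ribosomes an RNA carried was not measured by it.

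Copies of a family are near-identical, and a read that maps to several of them was divided between them. Of the 866 copies, 468 held 10 counts or more in 3 libraries and could be tested singly, 398 did not, and 73 had no count in any library. Only 2 copies passed this filter through the POLY libraries alone, and none through the 80S or the TOT libraries alone. Values of 464 of the 468 copies were not whole in at least 1 library, and 133 of the 866 copies share their span with another copy on the same strand. Counts were therefore also summed per family, which is the safer level, and copies of a family are not independent of each other. Levels are given in counts per 1000000 counts (CPM) scaled by TMM, a normalization that sets aside the features with extreme ratios. Differences are log2 fold changes with their standard error (SE), and a feature was called where the adjusted p of edgeR's quasi-likelihood test was under 0.01 over all features.

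LTR RNA took a larger share of the counts in polysomes than in monosomes or total RNA. The 30 families together took 0.364%, 0.470% and 0.550% of the counts in 80S replicates 1, 2 and 3, 1.69%, 1.03% and 1.17% in POLY, and 0.553%, 0.452% and 0.473% in TOT. All 3 POLY libraries lay above the other 6, and 80S and TOT overlapped. The mean share was 0.461% (SD 0.0934, n = 3) in 80S, 1.30% (SD 0.343, n = 3) in POLY and 0.493% (SD 0.0534, n = 3) in TOT, which makes POLY 2.81 times 80S and 2.63 times TOT. An exact two-sided permutation test gave p = 0.1 for both, the smallest p that 3 libraries against 3 allow, and p = 0.6 for 80S against TOT. The excess was uneven between replicates of the same number, from one lysate each. POLY over 80S was 4.63 in replicate 1, 2.20 in replicate 2 and 2.13 in replicate 3. POLY replicate 1 was also the library with the fewest counts, and without it POLY was 2.39 times 80S. The 125 other element families were also highest in POLY, with mean shares of 0.484% in 80S, 0.897% in POLY and 0.420% in TOT.

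**Figure D1:**
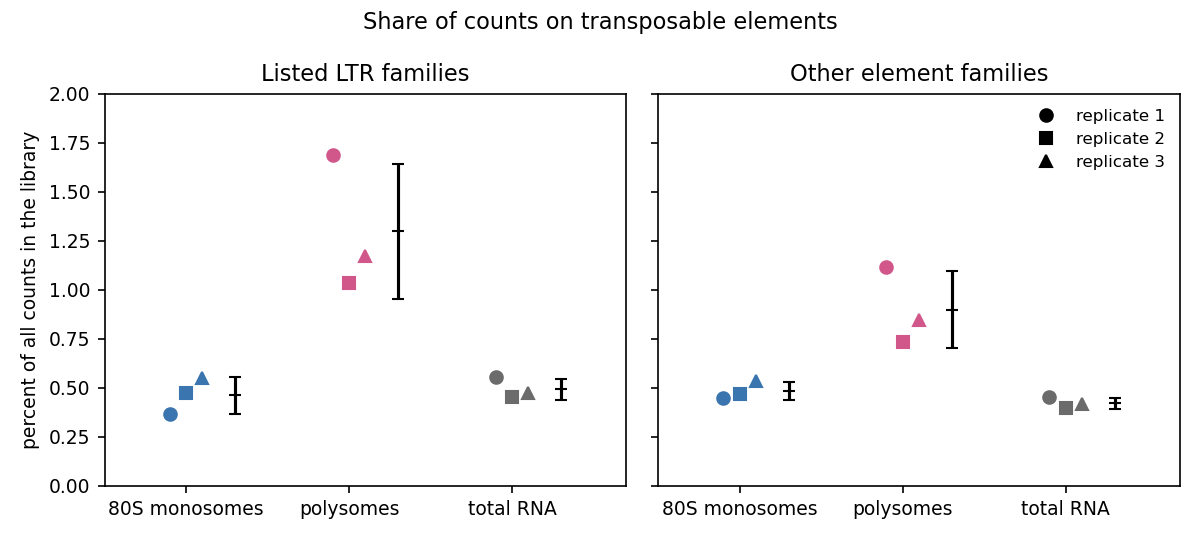
Percent of all counts in each library (vertical axis) on the 30 listed LTR families (left) and on all other element families (right). Points are libraries, with the replicate number as the shape, and the bars give mean and SD of 3. The 3 polysome libraries lie between 1.03% and 1.69% on the left and between 0.733% and 1.12% on the right, in both above the other 6 libraries.

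The family copia alone took 53.5% of the LTR counts in 80S, 53.8% in POLY and 42.2% in TOT, followed by gypsy with 18.7%, 11.5% and 16.9%. Without copia the share of the other 29 families was 0.211% in 80S, 0.590% in POLY and 0.285% in TOT, so that POLY was highest without copia as well. The relation of 80S to TOT did change. Without copia all 80S libraries (0.193% to 0.231%) lay below all TOT libraries (0.262% to 0.314%), while with copia they overlapped. The share of roo within the LTR counts was 2.25% in 80S, 7.50% in POLY and 7.18% in TOT. Per kilobase of all annotated copies, gypsy stood at 17.1 CPM in 80S, 30.2 in POLY and 16.6 in TOT, copia at 14.7, 43.4 and 12.1, and micropia at 6.63, 29.3 and 9.80. The same measure was 0.0983, 0.984 and 0.335 CPM for roo, the family with the most copies in the list, 140.

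Between polysomes and monosomes, 18 of the 30 families were called, all of them higher in POLY. Over all 11748 features tested, 5.64% were called higher in POLY and 2.4% higher in 80S. No family was called lower by edgeR, none was lower at an unadjusted p under 0.05, and none was called lower by DESeq2. The median log2 fold change of the families was 0.92 (quartiles 0.54 and 1.60), against -0.05 for all features. In 23 families all 3 POLY libraries lay above the 3 of 80S, which 14% of all features did, and in 0 families all 3 lay below, which 17.2% of all features did. The other 7 families overlapped. In 27 families POLY was above 80S in each of the 3 pairs of the same number.

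**Figure D2:**
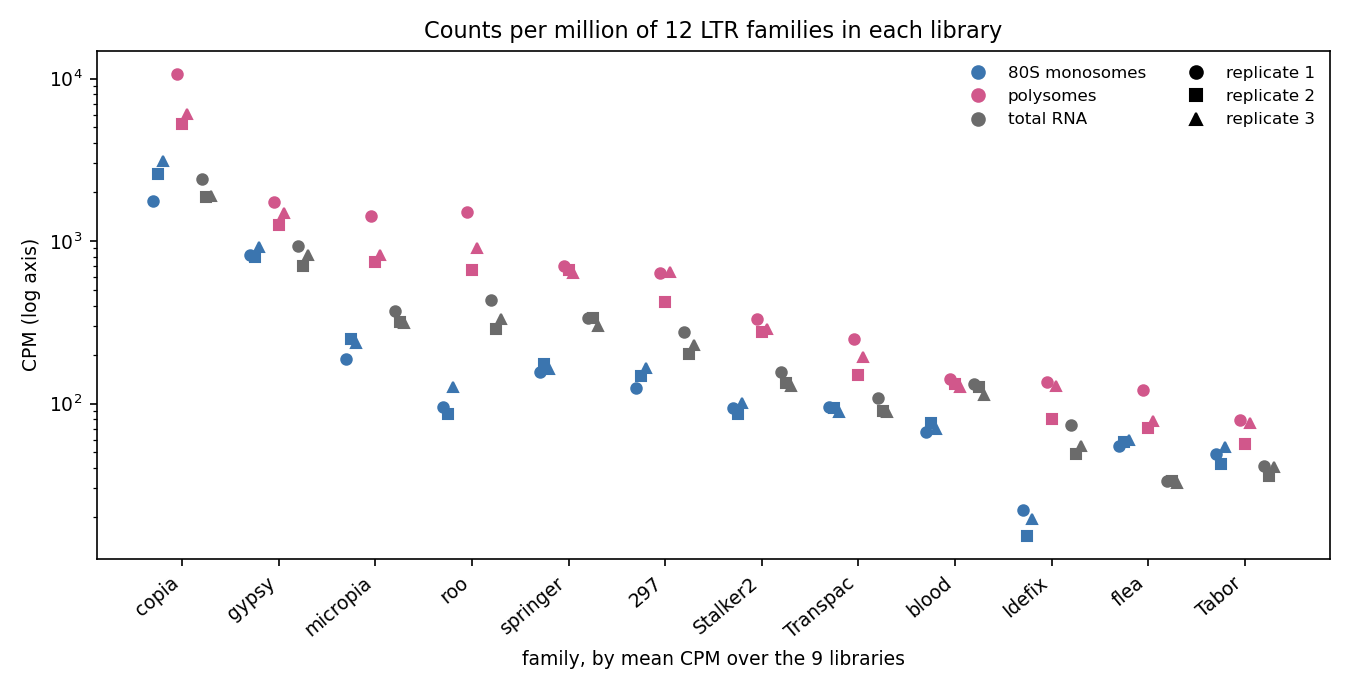
CPM of the 12 families with the most counts in each of the 9 libraries, on a log axis. Colours are the fractions and shapes the replicates, with no error bars. Polysome points lie above the 80S points in all 12, with roo and Idefix the widest apart, and for roo, springer and Idefix total RNA lies between.

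The 3 BEL/Pao families were all called higher in POLY. The largest difference of any family was that of roo, the most numerous LTR family of this genome. It stood at 95.7, 86.3 and 126 CPM in 80S, 1517, 659.6 and 904 in POLY and 431, 288 and 332 in TOT. The groups did not overlap, and total RNA lay between the fractions. Its log2 fold change of POLY over 80S was 3.32 (SE 0.29, adjusted p = 3.12e-05), with ratios of 15.9, 7.64 and 7.18 in the 3 pairs. The related family diver, with far fewer counts, stood at 1.65, 1.91 and 1.83 CPM in 80S, 10.9, 6.03 and 7.56 in POLY and 3.98, 3.36 and 3.44 in TOT, a log2 fold change of 2.14 (SE 0.21, adjusted p = 7.29e-05). For 3S18 the libraries gave 32.8, 31.3 and 32.1 CPM in 80S, 56.2, 39.2 and 50.3 in POLY and 33.6, 29.4 and 33.9 in TOT. POLY was higher by 0.59 (SE 0.12, adjusted p = 0.00719), and without any 1 of 7 libraries, with only the 6 libraries compared (0.0227) or with copies in genes left out (0.0110) this adjusted p was above 0.01.

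Of the Ty1/copia families, copia and Dm88 were called and 1731 was not. The family copia, first described from its abundant RNA in fly cells and known to make a shorter spliced mRNA for Gag, stood at 1771, 2577 and 3103 CPM in 80S, 10685, 5267 and 6013 in POLY and 2397, 1854 and 1888 in TOT. Each POLY library was above each of the other 6, and POLY replicate 1 was far above the other POLY libraries. The log2 fold change was 1.56 (SE 0.27, adjusted p = 0.00262), with ratios of 6.03, 2.04 and 1.94 in the 3 pairs. With the replicate number as a block the adjusted p was 0.0459, so that the call was lost. It was also lost without 80S replicate 2 (0.0101) and with only the 6 libraries compared (0.0114). Dm88 showed the same shape at a lower level, 21.5, 18.5 and 20.4 CPM in 80S, 83.2, 37.9 and 43.4 in POLY and 21.5, 14.8 and 15.8 in TOT, a log2 fold change of 1.44 (SE 0.26, adjusted p = 0.003), with an adjusted p of 0.0137 without 80S replicate 2, 0.0157 without 80S replicate 3 and 0.0126 with no filter on low counts. For 1731 the groups overlapped, with 11.9, 9.69 and 8.91 CPM in 80S, 14.1, 7.43 and 9.09 in POLY and 5.80, 5.13 and 5.09 in TOT, and the log2 fold change was -0.02 (SE 0.21, adjusted p = 0.967).

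Of the 21 Ty3/gypsy families whose names are not numbers, 12 were called higher in POLY, and of 297, 412 and 17.6 only 297 was. The family gypsy, whose insulator binds Su(Hw) and whose env protein makes it a retrovirus of flies, stood at 825, 797 and 913 CPM in 80S, 1745, 1249 and 1483 in POLY and 928, 704 and 821 in TOT. The groups did not overlap between POLY and the other libraries. The difference was 0.82 (SE 0.14, adjusted p = 0.00256), one of the smaller ones among the called families, and the adjusted p was 0.0129 without 80S replicate 2 and 0.0136 without POLY replicate 3.

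Larger differences were found for micropia, Idefix, springer and 297. The family micropia, known from Y chromosome loops of Drosophila hydei, stood at 189, 250.2 and 237 CPM in 80S, 1418, 745 and 820.1 in POLY and 371, 315 and 313 in TOT, a log2 fold change of 2.14 (SE 0.22, adjusted p = 8.54e-05). Idefix, an env-carrying family that the flamenco piRNA locus controls in the ovary, had 22.0, 15.4 and 19.6 CPM in 80S, 136, 80.8 and 128 in POLY and 73.7, 49.1 and 54.7 in TOT, a log2 fold change of 2.60 (SE 0.22, adjusted p = 2.68e-05). In both, TOT lay between the fractions with no overlap. For springer the libraries of a group lay close together, at 156, 174 and 163 CPM in 80S, 701, 665 and 636 in POLY and 335, 338 and 301 in TOT. Its log2 fold change was 2.02 (SE 0.09, adjusted p = 8.65e-07), the lowest adjusted p of the 30 families. Values for 297 were 124, 147 and 166 CPM in 80S, 636, 419 and 641 in POLY and 274, 202 and 228 in TOT, a log2 fold change of 1.96 (SE 0.18, adjusted p = 3.95e-05).

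A second set of Ty3/gypsy families rose by about the median of the called families. Stalker2 stood at 93.5, 86.3 and 101 CPM in 80S, 331, 277 and 286 in POLY and 157, 134 and 128 in TOT, a log2 fold change of 1.67 (SE 0.11, adjusted p = 9.71e-06). Quasimodo had 12.3, 8.70 and 10.6 CPM in 80S, 32.0, 29.0 and 35.0 in POLY and 23.6, 17.9 and 21.1 in TOT, with 1.62 (SE 0.15, adjusted p = 3.54e-05). In both families every TOT library lay between the 80S and the POLY libraries. The env-carrying Tirant was low, at 3.76, 3.48 and 3.88 CPM in 80S, 9.43, 7.30 and 9.92 in POLY and 6.93, 5.04 and 5.88 in TOT, with 1.25 (SE 0.16, adjusted p = 0.00045). For mdg3 the values were 15.8, 15.1 and 17.5 CPM in 80S, 50.4, 30.4 and 42.6 in POLY and 22.6, 18.4 and 20.2 in TOT, with 1.34 (SE 0.16, adjusted p = 0.00028). Both stood apart in all libraries of the pair of groups compared.

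Transpac, Burdock, mdg1 and blood were called with log2 fold changes near 1. Transpac stood at 95.2, 93.9 and 88.7 CPM in 80S, 249, 151 and 194 in POLY and 108, 90.4 and 89.1 in TOT, with 1.09 (SE 0.16, adjusted p = 0.000769). Burdock had 33.6, 30.3 and 31.1 CPM in 80S, 65.6, 59.4 and 76.2 in POLY and 40.9, 39.6 and 37.7 in TOT, with 1.08 (SE 0.10, adjusted p = 4.69e-05). In both, every POLY library stood above the other 6. The 80S and TOT libraries of Transpac overlapped, and those of Burdock did not, with 80S the lower. The family mdg1 had 17.6, 24.3 and 28.1 CPM in 80S, 53.3, 35.9 and 45.5 in POLY and 28.0, 25.0 and 26.0 in TOT, with 0.93 (SE 0.17, adjusted p = 0.00373). With the replicate block its adjusted p was 0.0105, and it was also above 0.01 without 80S replicate 2 (0.0121) or POLY replicate 3 (0.0185) and with only the 6 libraries compared (0.0169). The family blood had 66.5, 76.2 and 70.1 CPM in 80S, 141, 132 and 127 in POLY and 131, 127 and 112 in TOT. It was higher in POLY by 0.91 (SE 0.09, adjusted p = 7.73e-05), and its TOT libraries overlapped those of POLY, which those of no other called family did.

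The remaining families did not pass the threshold. Among the 12 with the most counts these were flea, with 54.9, 57.7 and 59.9 CPM in 80S, 121, 70.7 and 78.1 in POLY and 33.3, 33.5 and 32.5 in TOT, and Tabor, with 48.7, 42.7 and 53.7 CPM in 80S, 79.6, 56.0 and 75.8 in POLY and 41.2, 35.8 and 40.6 in TOT. Their log2 fold changes of POLY over 80S were 0.64 (SE 0.16, adjusted p = 0.0205) and 0.54 (SE 0.14, adjusted p = 0.0194), and in both all POLY libraries lay above those of 80S. With the replicate block Tabor (7.44e-06), 412 (0.000111), 17.6 (0.000417) and Stalker4 (0.00151) passed the threshold, which makes 20 families with the block. The block called 1383 of all 11748 features higher in POLY and 1358 lower, against 663 and 282 without it. DESeq2 called flea (0.000369), Tabor (0.000447), 412 (0.000603) and 17.6 (0.000163). Without POLY replicate 2 edgeR called flea (0.00554), Tabor (0.00253) and 412 (0.00815). With all 9 libraries the log2 fold changes of POLY over 80S were 0.61 for 412, 0.58 for 17.6, 0.54 for accord and 0.47 for Stalker4. They were 0.41 for Stalker, 0.32 for GATE, 0.17 for HMS-Beagle and 0.02 for rover. Only opus and 1731 had a value below 0. For opus the libraries gave 7.51, 12.5 and 14.7 CPM in 80S, 11.1, 7.37 and 7.47 in POLY and 6.90, 6.19 and 6.88 in TOT, and the log2 fold change was -0.46 (SE 0.23, adjusted p = 0.192). The groups overlapped, with POLY above 80S in replicate 1 and below it in replicates 2 and 3.

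**Figure D3:**
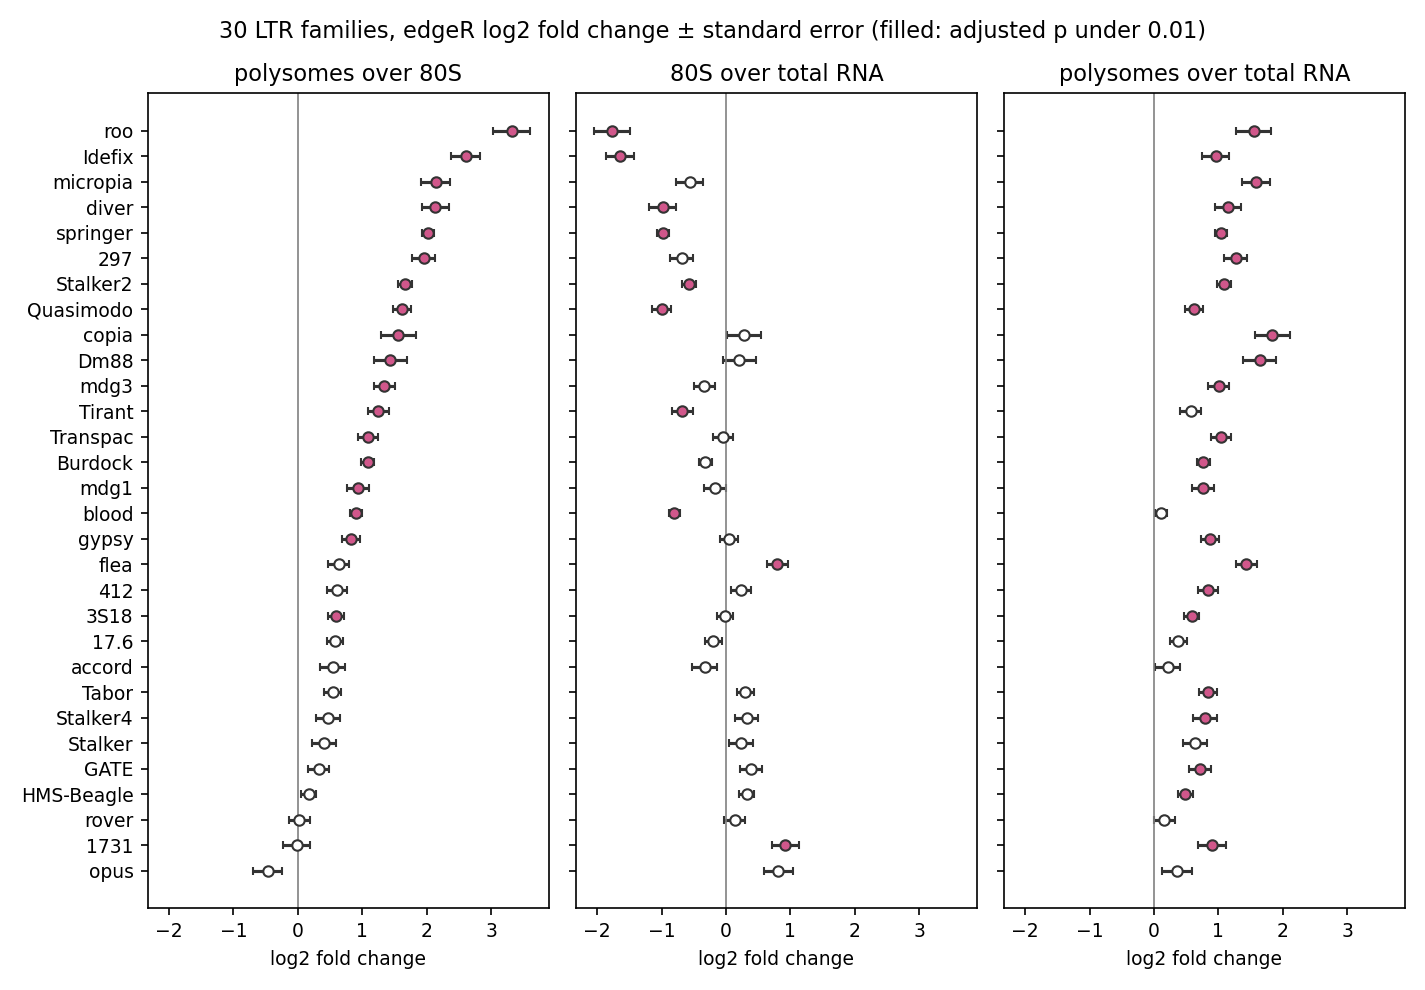
Log2 fold change (horizontal axis) of each of the 30 families for polysomes over 80S, 80S over total RNA and polysomes over total RNA, ordered by the first. Points are edgeR estimates, bars are ± 1 SE and filled points have an adjusted p under 0.01. In the left panel the 18 filled points are all to the right of 0, and in the middle panel 8 of the 10 filled points are to the left of it.

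The comparisons with total RNA share their libraries with the one above and are given for the same families. Between 80S and TOT, 10 families were called, 2 higher in 80S and 8 higher in TOT. Over all features 5.92% were called higher in 80S and 8.77% higher in TOT. The median log2 fold change was -0.11, against -0.02 for all features. The families lower in 80S than in TOT were roo (-1.77, adjusted p = 0.00115), Idefix (-1.65, adjusted p = 0.000461), Quasimodo (-1.0), diver (-0.98), springer (-0.98), blood (-0.80), Tirant (-0.68) and Stalker2 (-0.58). Higher in 80S were flea (0.80, adjusted p = 0.00473) and 1731 (0.92, adjusted p = 0.00767). Unlike roo, flea had its lowest level in total RNA, and both were highest in POLY. For copia (0.28) and gypsy (0.05) no difference was detected between 80S and TOT, with adjusted p = 0.464 and 0.832. With the replicate block 15 families were called, of which 297, Burdock, HMS-Beagle, Stalker4 and Tabor were added. The block called 1866 of all 11748 features higher in 80S and 2345 higher in TOT, against 696 and 1030 without it. Without 80S replicate 2, TOT replicate 1 or TOT replicate 2 only 5 were called, and without 80S replicate 3 or TOT replicate 3 only 6, each of them lower in 80S. Of 19 alternatives Tirant was called in 8, diver in 12, 1731 in 12, flea in 14 and Stalker2 in 16.

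Between POLY and TOT, 23 families were called, all higher in POLY, where 10.2% of all features were called higher in POLY and 11.4% higher in TOT. The median was 0.84, against -0.06 for all features. The largest log2 fold changes were those of copia (1.84), Dm88 (1.65), micropia (1.58), roo (1.55) and flea (1.44). Of the called families, 16 were higher in POLY in both comparisons, and in 6 of these 80S was also below TOT. For blood the value was 0.11 (SE 0.09, adjusted p = 0.371). With the replicate block copia (adjusted p = 0.0169), mdg1 (0.0138) and micropia (0.0104) did not pass, while 17.6, Stalker and Tirant did, and 23 families were again called. The block called 2197 of all 11748 features higher in POLY and 2693 lower, against 1203 and 1345 without it. Without POLY replicate 1, POLY replicate 3 or TOT replicate 3 the count was 15, and without TOT replicate 2 it was 14.

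Taken singly, 288 of the 468 tested copies were higher in POLY than in 80S and 2 were lower, with 7.81% of the 13057 features of that table higher in POLY and 4.17% higher in 80S. The median was 1.48, against -0.08 for all features. Between 80S and TOT, 7 copies were higher in 80S and 127 in TOT (6.59% and 9.01% of all features), and between POLY and TOT 268 were higher in POLY and 4 in TOT (10.5% and 12.1%). Without TOT replicate 1 or 80S replicate 2 the count between 80S and TOT fell to 83 and 85, and without TOT replicate 3 that between POLY and TOT was 174. Much of this was roo, which gave 110 of the 288. Among the other 353 copies 178 were higher in POLY and 1 was lower, with a median of 1.20.

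**Figure D4:**
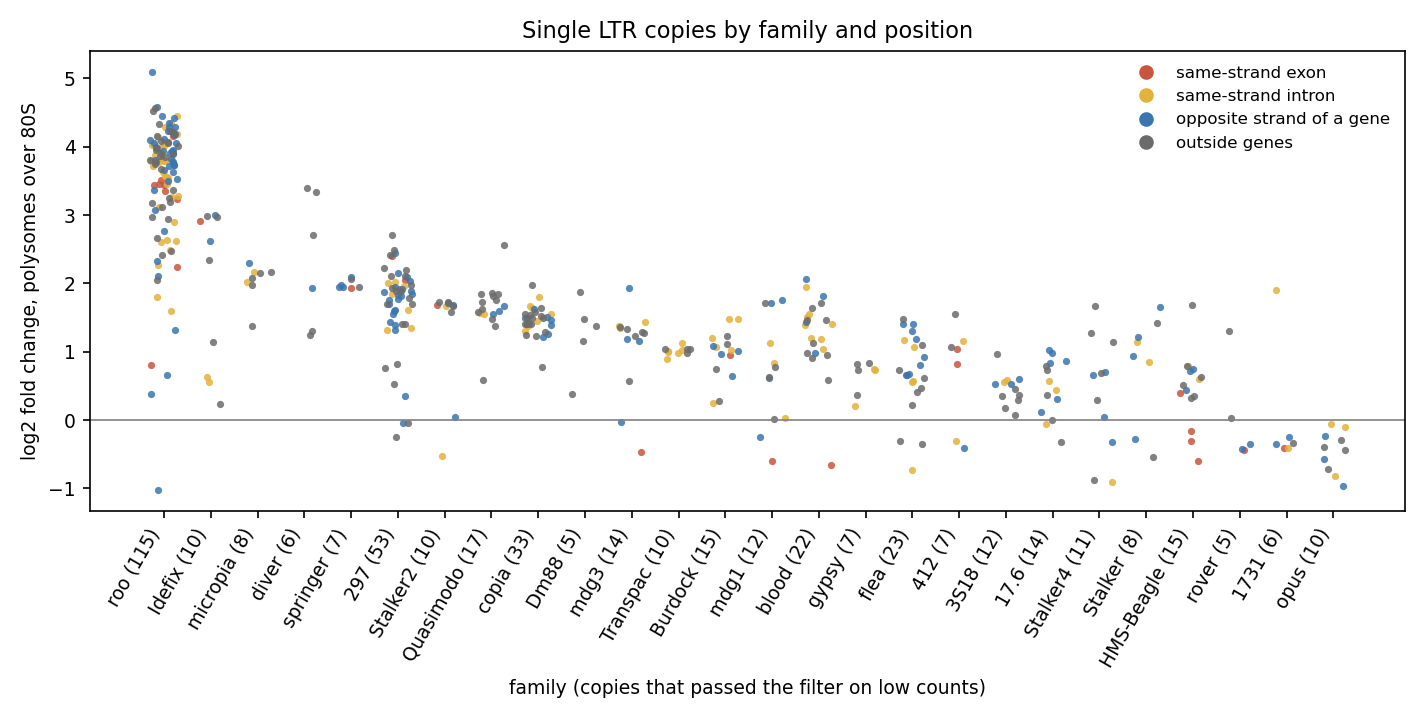
Log2 fold change of polysomes over 80S (vertical axis) for each copy that passed the filter on low counts, by family (families with 5 such copies or more, their number in brackets). Colours give the position of the copy against annotated genes, and points are spread sideways for view only. Nearly all roo copies lie above 2, while 1 roo copy and 1 exonic blood copy, the called ones below 0, lie apart from their families.

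Most tested copies of roo were higher in POLY. Of 140 annotated, 115 were tested, with a median length of 9091 bp and mean levels from 0.429 to 43.2 CPM (median 2.94). Of these, which share divided reads, 110 were higher in POLY, 1 was lower and 4 did not pass. Over all features 7.81% were higher in POLY and 4.17% lower. The median log2 fold change of the copies was 3.78 (quartiles 3.24 and 4.05). It was 3.86 for the 40 copies on the opposite strand of a gene, 3.85 for the 32 outside genes, 3.72 for the 33 in introns of a gene on the same strand and 3.44 for the 10 that reach a same-strand exon. Of the 104 copies of 7000 bp or more, 102 were higher in POLY, and of the 11 shorter ones 8 were. Against total RNA, 86 of the 115 were lower in 80S and 102 were higher in POLY, where 9.01% and 10.5% of all features were.

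The 8 copies with the largest log2 fold changes were all roo copies. First of them was roo{}1426 on chromosome 3R (26510557 to 26519559, BDGP6, plus strand), on the opposite strand of plum, with 0.104, 0.0491 and 0.134 CPM in 80S, 5.33, 2.28 and 2.94 in POLY and 1.50, 0.712 and 0.885 in TOT, and 5.10 (SE 0.51, adjusted p = 4.22e-05). On the X chromosome (10686106 to 10691184), roo{}100 lies on the opposite strand of X11Lbeta and had 1.20, 0.933 and 1.38 CPM in 80S, 41.4, 17.3 and 27.0 in POLY and 12.5, 7.68 and 9.58 in TOT, a log2 fold change of 4.58 (SE 0.34, adjusted p = 7.72e-06). In both, each POLY library was above all TOT libraries and these above all 80S libraries. The 80S levels of roo{}1426 rest on few, divided reads, so that the size and rank of its ratio are uncertain. The others were roo{}142 (X, outside genes, 4.57), roo{}1769 (2R, outside genes, 4.52), roo{}281 in an intron of ds (2L, 4.45), roo{}764 opposite pk (2R, 4.45), roo{}1434 opposite CG12885 (3R, 4.42) and roo{}1010 in an intron of Pka-C3 (3L, 4.35). The host gene ds, which encodes the cadherin Dachsous, rose by 0.67 (SE 0.13, adjusted p = 0.00276), far less than the copy in it, and Pka-C3, a protein kinase A catalytic subunit, had -0.25 (SE 0.08, adjusted p = 0.0402). The roo copy with the highest mean CPM was a different one, roo{}854 on 2R opposite GEFmeso. It had 4.58, 3.68 and 6.38 CPM in 80S, 156, 61.2 and 84.9 in POLY and 31.4, 18.5 and 22.3 in TOT.

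One roo copy went the other way. The copy roo{}339 on chromosome 2L (10946999 to 10956155, plus strand), on the opposite strand of dpr2, stood at 25.3, 25.3 and 33.6 CPM in 80S, 20.0, 9.26 and 13.4 in POLY and 53.2, 51.7 and 53.2 in TOT. Total RNA was highest and all POLY libraries lay below those of 80S. It fell by 1.02 on the log2 scale from 80S to POLY (SE 0.22, adjusted p = 0.00622). This call held in 9 of 17 alternatives. It was lost without 80S replicate 2, 80S replicate 3, POLY replicate 2, POLY replicate 3 or TOT replicate 3 (adjusted p 0.0110 to 0.0343), with the replicate block (0.0184), with only the 6 libraries compared (0.0206) and with scaling on nuclear protein-coding genes (0.0118), always with a value below 0. The gene dpr2, an immunoglobulin domain protein counted on its own strand, had -0.05 (SE 0.13, adjusted p = 0.83). This copy held 26.1%, 28.9% and 26.5% of the counts of the family in 80S and only 1.36%, 1.41% and 1.52% in POLY. Summed without it, roo was higher in POLY by 3.76 (SE 0.31), close to the median of its copies. The copy was left out because it fell in this same comparison. A larger value for the rest follows from that choice and is no test.

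The second copy called lower in POLY was blood{}5207, a stretch of 37 bp on 2L (5985132 to 5985168, plus strand) inside an exon of eIF4A, the RNA helicase of translation initiation. It stood at 38.3, 48.2 and 42.2 CPM in 80S, 22.8, 32.0 and 26.6 in POLY and 78.2, 77.8 and 71.0 in TOT. It fell by 0.65 on the log2 scale (SE 0.13, adjusted p = 0.00354). This call too held in 9 of 17 alternatives. It was lost without 80S replicate 2, 80S replicate 3, POLY replicate 1, POLY replicate 3, TOT replicate 2 or TOT replicate 3 (adjusted p 0.0120 to 0.0209), with only the 6 libraries compared (0.0222) and with the transcript table (0.0150), and the value stayed below 0. Its host eIF4A stood at 754, 589 and 529.9 CPM in 80S, 349, 338 and 298 in POLY and 813, 735 and 751 in TOT, a log2 fold change of -0.93 (SE 0.13, adjusted p = 0.00045). Reads over such a stretch cannot be told apart from reads of the host mRNA, with which they were divided. This copy held 56.9%, 62.2% and 59.5% of the counts of the family blood in 80S, 16.8%, 24.5% and 21.4% in POLY and 59.4%, 60.3% and 62.4% in TOT. Summed without it, blood was higher in POLY than in 80S by 1.88 (SE 0.11). It was higher in POLY than in TOT by 1.12 (SE 0.10), a comparison in which the whole family was not called. The copy was left out because it fell from 80S to POLY in these libraries, so that both values describe the rest and are no test. Among the other tested blood copies the 8 in same-strand introns had a median log2 fold change of 1.40, the 9 outside genes 1.13 and the 4 opposite a gene 1.62.

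Position was examined for all copies. Outside genes lay 419 copies, 245 were on the opposite strand of a gene, 155 in a same-strand intron and 47 overlapped a same-strand exon. Of those tested, 111 of 188 outside genes, 91 of 145 opposite a gene, 70 of 107 in introns and 16 of 28 at exons were higher in POLY, with median log2 fold changes of 1.42, 1.59, 1.45 and 1.81. Over all features 7.81% were higher in POLY and 4.17% lower. The 28 at exons were of 2 kinds, which were separated after their values had been seen. In 6, of 37 to 416 bp, the whole copy is exonic sequence of the host, and all had a log2 fold change below 0 (-0.65 to -0.16), with 1 of them called. In addition to blood{}5207 these were mdg1{}5628 in Sumo, mdg3{}290 in frtz and HMS-Beagle{}2418, HMS-Beagle{}3102 and HMS-Beagle{}4853 in ctp, CG46385 and Ssdp. The other 22, of 434 to 9151 bp, only reach into an exon, and 16 of them were higher in POLY, with a median of 2.14.

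Families were also split into copies that overlap a gene on the same strand and all other copies. Of the 57 rows so made that passed the filter, 33 were called between POLY and 80S, all higher in POLY, where 5.74% of all features were higher in POLY and 2.47% in 80S. Between 80S and TOT 18 were called, 4 higher in 80S and 14 in TOT (5.99% and 8.77%), and between POLY and TOT 37, of which 36 were higher in POLY (10.3% and 11.6%). Without TOT replicate 1 the 80S and TOT count was 8, and without 80S replicate 2, 80S replicate 3, TOT replicate 2 or TOT replicate 3 it was 10. For roo the log2 fold change was 3.52 for the copies in genes and 3.23 for the others, and for copia 1.69 and 1.52. The families blood (-0.11 and 1.94) and HMS-Beagle (-0.07 and 0.65) were those where the copies in genes lay furthest below the others among the families named here. In HMS-Beagle neither value passed the threshold (adjusted p = 0.687 and 0.0263). The difference between the 2 rows of a family was not tested.

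**Figure D5:**
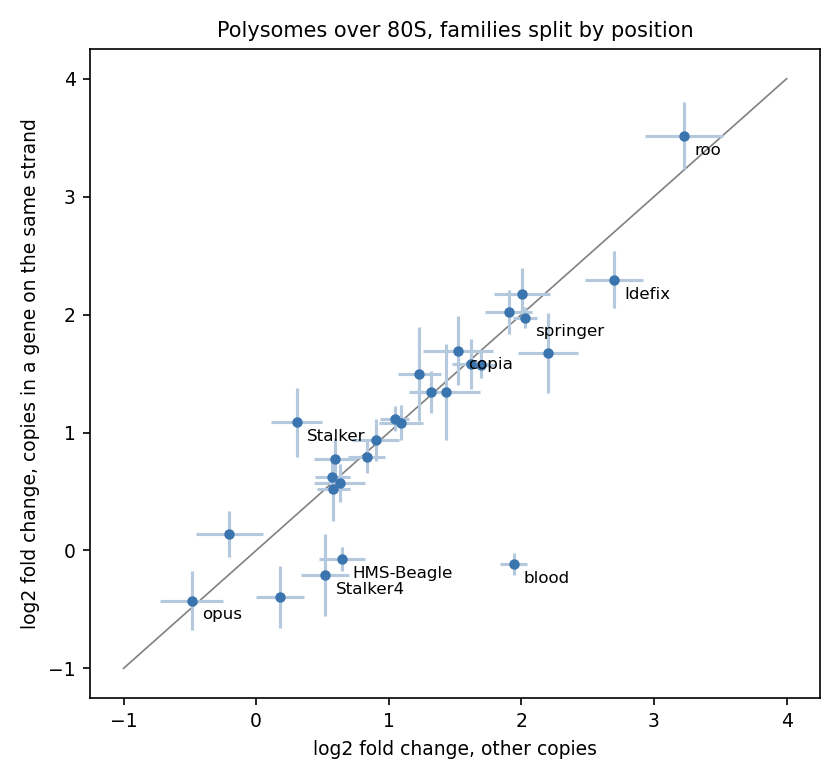
Log2 fold change of polysomes over 80S for the copies of a family in a gene on the same strand (vertical axis) against all other copies of that family (horizontal axis), for the 27 families with both. Bars are ± 1 SE and the line marks equal values. Most families lie near the line, and blood lies far below it, at -0.11 against 1.94.

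Most copies in genes lay above their host. The 135 tested copies on the strand of a gene lie in 122 genes, and for 124 copies the host was itself tested, with the host higher in POLY for 32 and lower for 4, where 7.81% of all features were higher in POLY and 4.17% lower. The median log2 fold change was 0.26 for hosts and 1.41 for copies on the strand of a gene, and the copy lay above its host in 102 of 124. Pearson's r between copy and host was 0.017, a description over copies that share reads. The most counted copies in genes were micropia{}RR48372 in an intron of Myo81F on 3R (2360999 to 2366472), with 94.8, 129 and 119.6 CPM in 80S, 731, 393 and 424 in POLY and 194, 168 and 169 in TOT, and springer{}1067 on 3L (20476808 to 20484350), which reaches an exon of isoQC by 196 bp, with 33.0, 38.0 and 35.4, 142, 135 and 129 and 68.6, 68.8 and 62.7 CPM. Their log2 fold changes were 2.17 (SE 0.22, adjusted p = 4.07e-05) and 1.93 (SE 0.09, adjusted p = 2.47e-07). The hosts had 0.72 (SE 0.17, adjusted p = 0.00981) and -0.39 (SE 0.12, adjusted p = 0.0339), so that isoQC, a glutaminyl cyclase, and the copy that reaches its exon had opposite signs.

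The most counted copy of the other leading families followed the family. For copia this was copia{}1391 outside genes on 3R (20109593 to 20114740), with 481, 622 and 742 CPM in 80S, 2628, 1302 and 1357 in POLY and 513, 409 and 421 in TOT, a log2 fold change of 1.52 (SE 0.25, adjusted p = 0.00147). For gypsy it was gypsy{}615 outside genes on 2R, with 294, 279 and 315 CPM in 80S, 609.6, 444 and 512 in POLY and 343, 254 and 291 in TOT, and 0.82 (SE 0.14, adjusted p = 0.0014). The values were 1.96 for 297{}RR48371 in an intron of Pzl, 1.72 for Stalker2{}22 opposite Hr4, 1.0 for Transpac{}1262 in an intron of CG7900 and 2.99 for Idefix{}RR48398 outside genes, all called. Tabor{}341 (0.50, adjusted p = 0.0219) and flea{}876 (0.62, adjusted p = 0.042), both outside genes, were not called, like their families. All 33 tested copia copies had values between 0.78 and 1.97, and 31 were called, where 7.81% of all features were called higher in POLY.

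Across the 30 families the log2 fold change of POLY over 80S had a Spearman's rho of 0.58 with the mean CPM, 0.06 with the length of the longest copy and 0.19 with the number of copies. Pearson's r was 0.22, 0.15 and 0.49 in the same order. The mean CPM includes the POLY and 80S libraries that make the fold change, so that the 2 are not independent. All these coefficients are descriptions over families that share the same 9 libraries, and the nested copies of some families are longer than the element.

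Genes known to act on LTR elements were examined between POLY and 80S, where 5.64% of all features were called higher in POLY and 2.4% lower. Of 34 listed piRNA pathway genes 32 were tested between POLY and 80S, and 3 were called, all lower in POLY. These were csul, a methyltransferase of Piwi proteins (-0.78, adjusted p = 0.00161), Panx, which silences transcription at Piwi targets (-0.56, adjusted p = 0.00566), and piwi itself (-2.13, adjusted p = 0.00966). Of these, piwi stood at 3.45, 3.84 and 7.55 CPM in 80S, 0.719, 0.800 and 1.84 in POLY and 1.99, 2.99 and 5.31 in TOT, low in all libraries. Of 8 tested siRNA pathway genes none was called by edgeR, with 1 lower and 0 higher at an unadjusted p under 0.05. AGO2, the slicer of that pathway, had 321, 325 and 321 CPM in 80S, 289, 294 and 295 in POLY and 275, 284 and 283 in TOT. Among 15 chromatin genes only Su(var)2-HP2, a partner of the heterochromatin protein HP1, was called, higher in POLY by 0.53 (adjusted p = 0.0096). Medians were -0.49, -0.16 and -0.21 for these lists, against -0.05 for all features. At an unadjusted p of edgeR under 0.05, 10 piRNA genes were lower in POLY and 1 higher, and 6 chromatin genes were lower and 1 higher. Of all 11748 features 1960 were lower and 1669 higher at this threshold. Between 80S and TOT, 3 piRNA, 3 siRNA and 4 chromatin genes were higher in 80S and 1 piRNA gene was lower, against 5.92% and 8.77% of all features. Between POLY and TOT, 1 siRNA and 5 chromatin genes were higher in POLY, and 1 piRNA and 1 siRNA gene were lower, against 10.2% and 11.4%. The chromatin median in this comparison was 0.13.

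Of 4 genes that derive from LTR elements 1 was called, and it was lower in POLY. The neuronal gene Arc1, whose Gag-like protein forms capsids, stood at 5713, 2450.3 and 2504 CPM in 80S, 519, 421 and 339 in POLY and 2662, 1960.4 and 2015 in TOT. All POLY libraries were below the other 6, and the log2 fold change was -3.06 (SE 0.32, adjusted p = 9.23e-05). Of the other genes of this kind, Gagr (-0.31), Iris (-0.10), which derives from an env gene, and Arc2 (0.84) were not called.

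All 12 head markers were detected. Between POLY and 80S the synaptic genes brp (1.0) and Syt1 (0.73) were called higher in POLY, and the other 10 were not called. Over all features 5.64% were higher in POLY and 2.4% lower. Of the 12 markers 5 had a log2 fold change above 0, and their median was -0.07, against -0.05 for all features. Markers of other tissues were examined because many LTR families are known for germline activity, and in bulk RNA fewer cells of a type and less RNA per cell cannot be told apart. Of 12 germline markers 6 could be tested and none was called by edgeR, with 3 lower in POLY and 0 higher at an unadjusted p under 0.05. Their summed level was 75.4 to 136 CPM in 80S, 29.4 to 74.4 in POLY and 28.3 to 76.4 in TOT, highest in replicate 3 of each group. The 6 testis markers were each under 1 CPM in all libraries. Fat body markers summed to 19552 to 30165 CPM in 80S, 15826 to 26697 in POLY and 23292 to 33508 in TOT, with 0 of 6 called, and the part of these tissues in the differences was not tested.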

How the data were processed

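RNA-seq of 80S monosomes, polysomes and total RNA of fly heads was analysed, with 3 libraries each. Libraries were stranded and made after removal of ribosomal RNA. Single reads were cleaned (Trimmomatic 0.33), aligned to BDGP6 (STAR 2.7.10a) and assigned to features (featureCounts 2.0.1). The authors deposited estimated counts per gene and per transcript, not normalized, in which a read with several places or several features is divided between them. Copies, nested elements and host genes therefore share counts. Symbols, strands and positions were taken from Ensembl BDGP6 release 115, which is newer than the annotation of the authors. It matched 23851 of 23932 features. No genome sequence was used, so that no sequence is shown.

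Counts were rounded and features with 10 counts or more in 3 libraries were kept. In R 4.3.3, edgeR 4.0.16 (TMM, robust quasi-likelihood, all 9 libraries, no block) was fitted to tables with elements summed per family, with copies singly, and with families split by position, 11748, 13057 and 11834 features. Adjusted p is Benjamini-Hochberg over all features of a table, with a threshold of 0.01 as used by the study. SE is the log2 fold change over the square root of F. The test was tried on simulated counts. The study used DESeq2, which was run here as an alternative (1.42.0, local fit). Replicates of a number come from one lysate, and their deviations from the group means correlated in 9 of 9 pairs (0.21 to 0.43), so that the numbers pair the libraries. Alternatives were other scalings, filters, thresholds, the transcript table, the replicate block, each library left out and copies in genes left out, and, chosen after seeing the data, the 2 copies that fell left out of the sums.

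Members and gene lists were chosen with earlier results of these data known. Values in every library are given for the 12 families with the most counts and for all called ones. Named copies are the 8 with the largest log2 fold changes in each direction among those called, and the most counted of each of the 12 families, with their host genes. Others were chosen after their values were seen. The symbols nos, trim, Sov and Rpd3 of the lists were not matched.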

Additional observations from a re-analysis of the deposited data

How the results depend on the processing

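The direction of every family called between POLY and 80S was kept in all alternatives. The call itself held in all 19 alternatives for 13 of the 18 families called between POLY and 80S, 5 of 10 between 80S and TOT and 12 of 23 between POLY and TOT. Between POLY and TOT it held in 11 of 19 for HMS-Beagle, 12 for 1731, 13 for GATE and mdg1, 14 for Stalker4, 15 for 3S18, Idefix and Quasimodo and 18 for 412, copia and micropia. DESeq2 called 22 families between POLY and 80S, 12 between 80S and TOT and 26 between POLY and TOT, against 18, 10 and 23. Of all 11748 features DESeq2 called 1143, 1469 and 2043 higher in the first group, against 663, 696 and 1203 with edgeR. It called 641, 1638 and 1730 lower, against 282, 1030 and 1345. The fit of the 6 libraries compared gave 15, 10 and 22. Leaving out 1 library at a time gave 13 to 21, 5 to 11 and 14 to 24 families, 234 to 294, 83 to 158 and 174 to 284 copies, and 25 to 37, 8 to 21 and 26 to 42 rows split by position. At a threshold of 0.05, 202 copies were called between 80S and TOT, against 134. With the replicate block 20, 15 and 23 families were called. Of all 11748 features the block gave 1383, 1866 and 2197 called higher in the first group and 1358, 2345 and 2693 called lower. No other call of a family than those named with their block values or as added was changed by the block. The sums without roo{}339 and blood{}5207, copies left out because they fell in these data, gave 18, 10 and 24 families.

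Signs changed only where a family was not called. For 1731 between POLY and 80S the log2 fold change was 0.0221 with DESeq2, 0.00616 with the transcript table, 0.0157 with relative log expression size factors, and -0.273 to 0.181 with 1 library left out. For rover it was -0.0345 to 0.0908 with 1 library left out. Between 80S and TOT, 3S18 gave 0.00753 with DESeq2, 0.00765 with relative log expression, 0.0263 with scaling on nuclear protein-coding genes, 0.0303 with copies in genes left out and -0.0754 to 0.0383 with 1 library left out. Transpac gave 0.0104 with copies in genes left out and -0.102 to 0.0620 with 1 library left out, gypsy -0.0226 with the transcript table and -0.0513 to 0.166 with 1 library left out, and mdg1 0.10 with copies in genes left out. The ratio of LTR shares of 80S over TOT was 0.936, and 0.846 to 1.04 with 1 library left out. The cause of these changes was not tested.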

Other observations

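The other element families of the table were classed by hand after the files had been seen. Of 28 further LTR families 15 were called higher in POLY than in 80S and 0 lower by edgeR, with 2 lower at an unadjusted p under 0.05, and the median log2 fold change was 1.01. Of 38 non-LTR families, which move through an RNA but have no long terminal repeats, 13 were higher and 2 lower (median 0.71), and of 22 DNA transposon families, which move without an RNA copy, 8 were higher and 1 lower (median 0.59). Of 18 families left without a class 7 were higher and 2 lower (median 0.78). Over all features 5.64% were called higher in POLY and 2.4% lower. The differences between these classes were not tested.

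The 22 copies with the symbol Max, which the family list did not match, stood together at 82.4, 111 and 108 CPM in 80S, 481, 381 and 442 in POLY and 215, 198 and 209.5 in TOT. The log2 fold change of POLY over 80S was 2.11 (SE 0.13, adjusted p = 6.47e-06), and that of 80S over TOT was -1.04 (SE 0.13, adjusted p = 0.000292). Total RNA lay between the fractions without overlap, as for roo and Idefix. The non-LTR family Doc had 1061, 929.9 and 990.1 CPM in 80S, 519, 329.5 and 364 in POLY and 346, 289 and 302 in TOT, and a log2 fold change of -1.30 (SE 0.16, adjusted p = 0.000252), a direction that no listed LTR family took among those called. Both families were chosen after their values were seen.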
